A study of Mus musculus with 6 samples.

Results

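The genes described here are 10 genes of the oligodendrocyte and astrocyte lineages of the forebrain. They are the oligodendrocyte precursor genes Olig1, Olig2, Pdgfra, Sox10 and Cspg4 and the astrocyte genes Aldh1l1, Aldoc, Apoe, Gfap and Aqp4. They were taken by symbol from a table of 25239 genes, of which 18446 had a test, and all 10 had one. Polyadenylated RNA came from the electroporated region of embryonic cortex of C57BL/6J mice, all labelled wildtype, electroporated at E13.5 and collected at E15.5. One group of 3 libraries received a Breasi-CRISPR edit that inserts the Thr280Ala variant of the cyclin D2 gene Ccnd2 (labelled MPPH), and the other group of 3 libraries received GFP only. The labels name no group that was edited without the variant, so the variant and the editing cannot be told apart. Only part of the cells in the tissue take up the electroporated material in this method. Whether each library came from its own embryo is not in the labels, so p-values here cover the spread between the 6 libraries and nothing wider. The share of edited cells was not measured.

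Oligodendrocyte precursors of the mouse forebrain first arise in the ventral ganglionic eminences under Sonic hedgehog, where the basic helix-loop-helix factor Olig2 is also expressed in progenitors of neurons, and from there they migrate into the cortex. Radial glia of the cortex turn to making astrocytes after neurogenesis, with the NFI factors, Sox9 and cytokine signalling through STAT3 as known drivers. Several of the genes are shared with other cells: Pdgfra is also expressed by fibroblasts of the meninges, Cspg4 by pericytes, Apoe by microglia and macrophages, and Aldoc and Aldh1l1 already by radial glia. No source used here names the numerator of the deposited fold change, so neither the variant nor GFP is given a direction. The group that is higher where a log2 fold change is above 0 is called the positive side, and the other group the negative side.

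None of the 10 genes was called in the authors' deposited DESeq2 table, which means an adjusted p under 0.05, while 25 of the 18446 genes tested were (0.136%). The oligodendrocyte precursor gene Olig2 and the astrocyte gene Aldh1l1 had an unadjusted p under 0.05, a count of 2 of 10 against 3.96% of all genes tested. Both lay on the negative side, where 1.19% of all genes tested had such a p, against 2.77% on the positive side. Of the 10 genes, 5 had positive and 5 had negative log2 fold changes, with a median of -0.04 beside a median of -0.0044 over all genes tested. The largest absolute log2 fold changes of the set were those of Gfap (1.02), Apoe (0.89), Olig2 (-0.75) and Aldh1l1 (-0.67), so they did not share a direction.

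**Figure D1:**
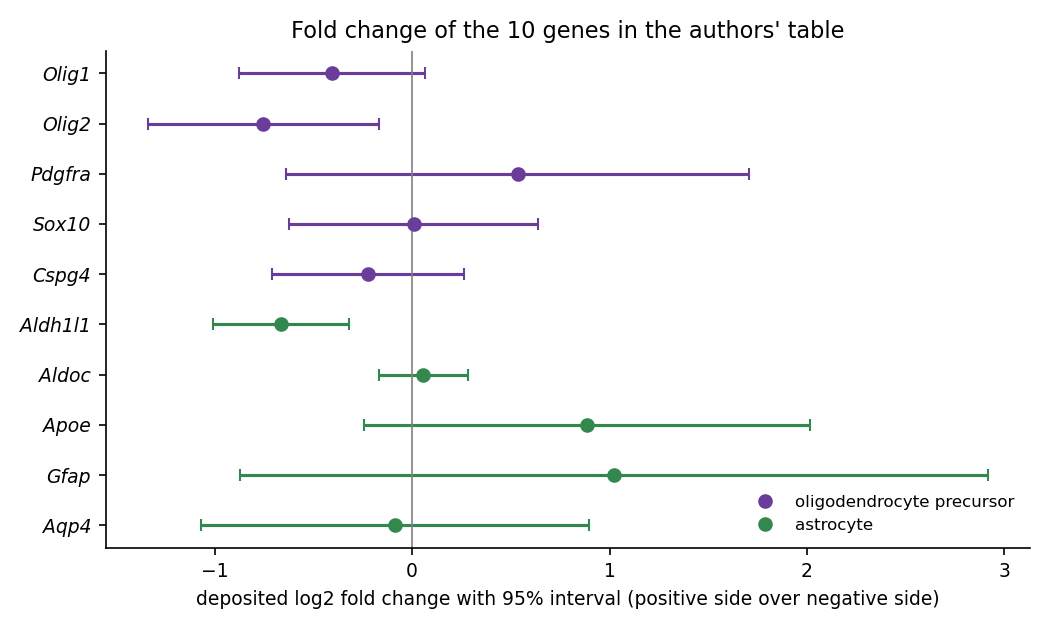
Log2 fold change of each of the 10 genes in the authors' deposited table (x axis, positive side over negative side), with its 95% interval from the deposited standard error. The intervals of Olig2 (-1.34 to -0.17) and Aldh1l1 (-1.01 to -0.32) lie below 0, and those of the other 8 genes span 0.

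The upstream windows of Olig2 and Aldh1l1 are shown because these genes had the smallest p-values of the set and the same direction. Each is the stretch of 250 bases before the RefSeq gene start on the plus strand of build GRCm38.p6, at chr16:91225300-91225549 and chr6:90550543-90550792. Both RefSeq starts lie inside the GENCODE spans of the genes given below. RefSeq promoters were matched for 7 of the 10 genes. Capitals mark CCAAT, searched on both strands (ATTGG on the printed strand), a motif chosen after these windows had been read.
Olig2: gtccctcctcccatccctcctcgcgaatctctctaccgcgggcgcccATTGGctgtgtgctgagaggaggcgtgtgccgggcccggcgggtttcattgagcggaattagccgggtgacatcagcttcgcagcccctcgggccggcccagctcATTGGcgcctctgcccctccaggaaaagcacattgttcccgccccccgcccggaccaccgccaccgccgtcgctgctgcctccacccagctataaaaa
Aldh1l1: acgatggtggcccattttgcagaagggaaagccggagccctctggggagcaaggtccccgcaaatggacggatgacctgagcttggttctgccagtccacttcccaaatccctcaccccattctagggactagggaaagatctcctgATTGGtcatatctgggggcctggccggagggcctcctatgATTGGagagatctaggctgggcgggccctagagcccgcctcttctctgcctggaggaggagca
Each window held 2 matches to CCAAT, and 10.5% of 27025 promoter windows of this length held 2 or more. CANNTG, the E-box core that basic helix-loop-helix factors recognise and which reads the same on both strands, had 0 matches in the Olig2 window and 1 in the Aldh1l1 window, against 66.0% of windows with at least 1. These are matches of letters, and binding was not measured.

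Levels within the set spanned a wide range. Levels of different genes are compared only per kilobase of annotated exon, as mean normalised counts over all 6 libraries. Apoe, which encodes the main lipid carrier protein of the brain, had the highest level, at 1742 per kilobase, followed by the glycolytic aldolase gene Aldoc at 1381. The transcription factor gene Olig1 and the folate enzyme gene Aldh1l1 followed at 190.1 and 179 per kilobase, Olig2 at 85.1 and the PDGF receptor gene Pdgfra at 34.7. The SoxE factor gene Sox10 had 21.1 per kilobase and the proteoglycan gene Cspg4 (NG2) 13.2. The water channel gene Aqp4 and the intermediate filament gene Gfap, which mark more mature astrocytes, were lowest at 4.68 and 3.15 per kilobase. Neighbours in this order differed by a factor of 1.06 (Olig1 over Aldh1l1) to 7.26 (Aldoc over Olig1). The factor between Olig1 and Aldh1l1, and the 1.26 between Apoe and Aldoc, were smaller than the spread between libraries, which for Apoe alone reached a factor of 3.98. Of 12 genes of the dorsal cortex, none was at a mean of 0, and none was called. All 12 genes of a ventral forebrain list also had a mean above 0, so this cannot tell dorsal from ventral tissue. By the levels above, RNA of markers of both glial lineages was present in this tissue, that of mature astrocyte markers at low levels.

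The authors' table has no values per library, but base means up to 850, and that of Apoe, can be split into the whole reads of each library with the help of the deposited fold change and standard error. This gave exactly 1 set of 6 read counts for 9 of the 10 genes, and Aldoc was not resolved. The same search resolved 410 of 412 genes, every 20th by mean between 10 and 850. Libraries are numbered 1 to 3 within a side by falling size factor, which ran from 0.904 to 1.11 on the positive side and from 0.850 to 1.11 on the negative side. No library was matched to a label. An exact permutation test of 3 against 3 libraries cannot go below a two-sided p of 0.10, so such a test cannot pass 0.05 for any gene here.

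**Figure D2:**
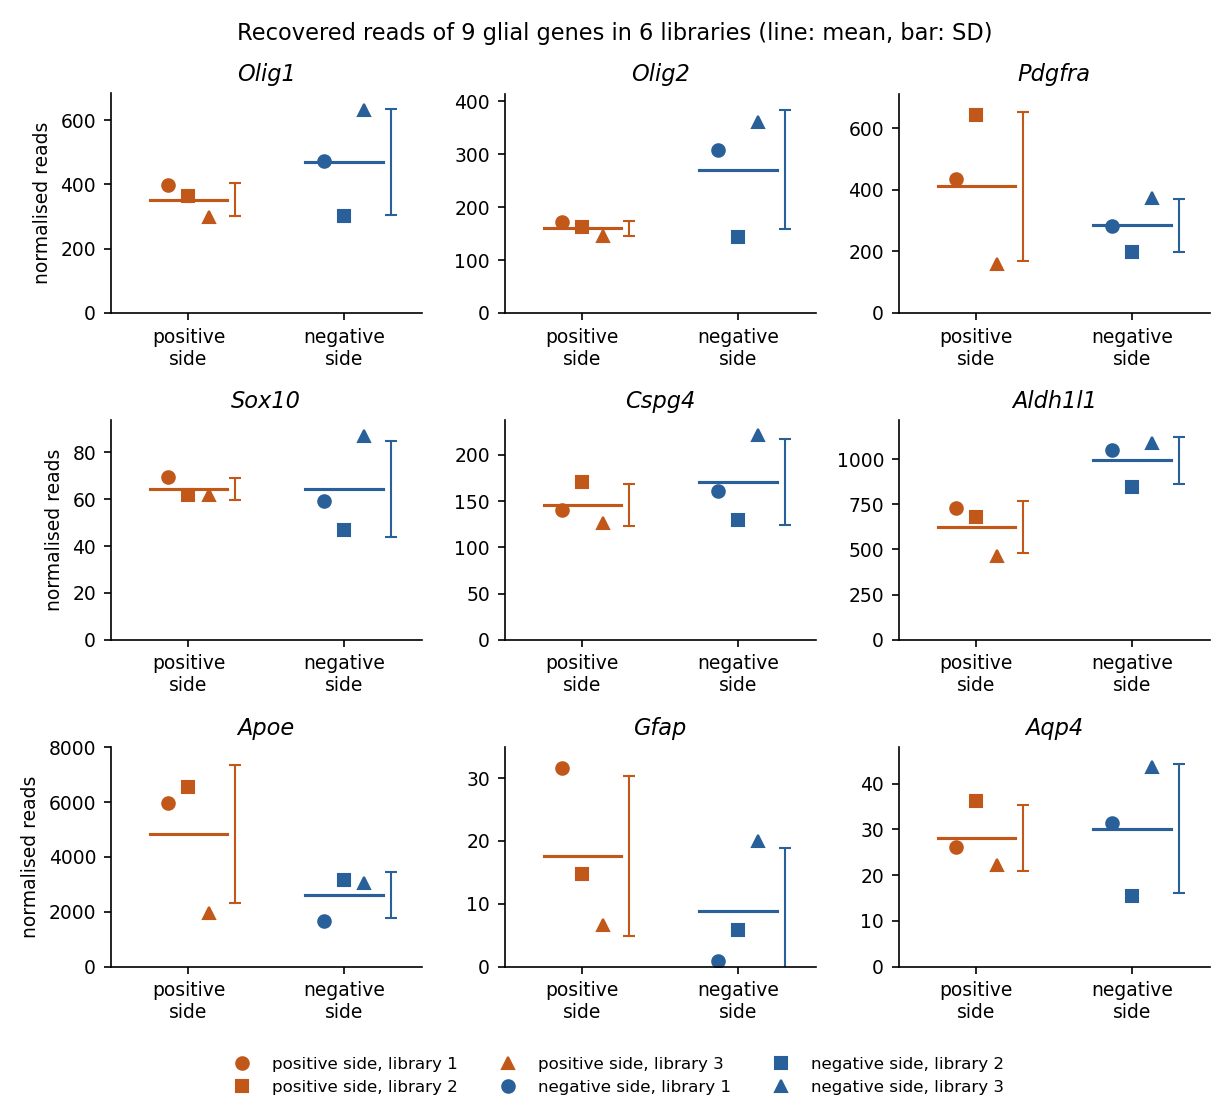
Normalised reads of the 9 resolved genes in each library (y axis, from 0), with the mean as a line and the SD as a bar for the 3 libraries of each side; the lower end of the bar for Gfap on the negative side lies below 0 and is not drawn. Only Aldh1l1 has sides that do not overlap, with 463 to 731 for the positive and 843 to 1086 for the negative side.

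Aldh1l1, which encodes the cytosolic 10-formyltetrahydrofolate dehydrogenase used as a marker of astrocytes and radial glia, was the gene nearest to a call. It had 731, 680 and 463 normalised reads in libraries 1 to 3 of the positive side, and the negative-side libraries had 1049, 843 and 1086. The sides did not overlap, and every library of the negative side lay above every library of the positive side (exact permutation p = 0.10, the smallest possible). The log2 fold change in the authors' deposited table was -0.67 with a standard error of 0.18, a level 1.59 times that of the positive side, and the adjusted p by DESeq2 was 0.075. It ranked 38 by p among the 18446 genes tested, and 1 of the 200 genes closest in mean had a larger absolute fold change. The mean was 625 ± 142 on the positive side (SD, n = 3) and 993 ± 131 on the negative side (SD, n = 3). Non-overlap alone was not rare: of 410 resolved genes taken across the same range of means, 12.7% had sides that did not overlap, and of the 9 resolved glial genes 1 did. Aldh1l1 lies on the plus strand of chromosome 6, from 90486427 to 90600203 (mm10, GENCODE M21), and the antisense gene Gm15756 shares 499 of its exonic bases. No source used here gives the strand setting used for counting, so reads of the pair cannot be told apart. The same holds for Olig1 with Gm15966 (157 shared exonic bases) and for Pdgfra with Gm42802 (456) and Gm42803 (166). Genes on the same strand share exonic bases as well, Gm45901 with Aldh1l1 (105) and the microRNA gene Mir7025 with Pdgfra (30). A strand setting could not separate the reads of these.

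Olig2, the basic helix-loop-helix factor that specifies oligodendrocyte precursors, lies on the plus strand of chromosome 16, from 91225457 to 91228677. It had 172, 163 and 145 normalised reads in the positive-side libraries and 307, 144 and 360 in the negative-side libraries. Libraries 1 and 3 of the negative side were high, and library 2 of that side lay at the level of the positive side, so the sides overlapped (exact permutation p = 0.40). The deposited log2 fold change was -0.75 ± 0.30 (standard error), with an unadjusted DESeq2 p of 0.011 and an adjusted p of 0.69. The side means were 160 ± 13.7 (positive) and 270 ± 113 (negative; SD, n = 3 each).
Olig1, its paralog with roles in oligodendrocyte maturation, lies 41094 bases downstream of Olig2, from 91269772 to 91271933. It had 398, 364 and 298 normalised reads in the positive-side libraries and 473, 302 and 632 in the negative-side libraries. Again only libraries 1 and 3 of the negative side lay above the whole positive side (exact permutation p = 0.40). The deposited log2 fold change of Olig1 was -0.41 ± 0.24 (standard error), with a DESeq2 adjusted p of 1.00, and the side means were 353 ± 51.0 and 469 ± 165 (SD, n = 3 each).

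Markers of the ventral forebrain moved with these values. All 12 genes of that list had negative log2 fold changes, with a median of -1.21, and 2 of them (Dlx5 and Dlx6, with log2 fold changes of -1.40 ± 0.28 and -2.38 ± 0.53, standard errors) were called on the negative side, where 0.0488% of all genes tested were. An unadjusted DESeq2 p under 0.05 was found on that side for 9 of the 12, against 1.19% of all genes tested. Summed over the 7 resolved genes of the list, normalised reads were 1618, 1388 and 839 in the positive-side libraries and 3405, 1858 and 3106 in the negative-side libraries. In 7 of these 7 genes, as in Olig1 and Olig2, the negative side had its lowest value in library 2. Aldh1l1 and the ventral sum shared their order of libraries except that libraries 1 and 3 of the negative side changed places. Dlx5, a homeobox gene of the ganglionic eminences, had 328, 248 and 165 normalised reads against 836, 418 and 708. None of the 7 resolved genes was at 0 in any library. Of the 12 dorsal cortex genes, 9 had positive log2 fold changes, with a median of 0.06 over the list, and 0 were called. On the positive side 3 of the 12 had an unadjusted DESeq2 p under 0.05, against 2.77% of all genes tested. Among them were Emx2 (log2 fold change 0.32 ± 0.14, standard error) and Eomes (0.34 ± 0.16). In bulk tissue a smaller number of cells of a type and less RNA per cell cannot be told apart, and the part of ventral or dorsal tissue in the values of Olig1, Olig2 and Aldh1l1 was not tested.

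Pdgfra, the receptor through which PDGF-A drives proliferation of oligodendrocyte precursors, had a fold change of the opposite sign to Olig1 and Olig2. The gene lies on the plus strand of chromosome 5, from 75152292 to 75198215. It had 435, 641 and 159 normalised reads in the positive-side libraries and 282, 199 and 372 in the negative-side libraries. The highest libraries and the lowest library were all on the positive side (exact permutation p = 0.70), with side means of 412 ± 242 and 284 ± 86.6 (SD, n = 3 each). The deposited log2 fold change of 0.54 ± 0.60 (standard error) had a DESeq2 adjusted p of 1.00, and a wider standard error was found for 2 of the 200 genes closest in mean. Without library 2 of the positive side the log2 ratio of the recovered reads was 0.06, and without library 3 of that side it was 0.92.
Markers of meninges and fibroblasts moved with the high libraries. All 12 genes of that list had positive log2 fold changes, and 4 were called, where 0.0867% of all genes tested were called on the positive side. Summed over 11 resolved genes, normalised reads were 5812, 7599 and 1198 in the positive-side libraries and 1045, 899 and 1000 in the negative-side libraries, with the positive-side minimum in library 3 for 11 of 11 genes. The collagen gene Col1a1 had 1592, 2145 and 63.0 normalised reads against 34.1, 28.8 and 47.1. None of the 11 resolved genes was at 0 throughout a side, and 2 were at 0 in at least 1 library. On the negative side, where this sum varied little, Pdgfra had the same order of libraries as Olig1 and Olig2, with library 3 highest and library 2 lowest. That order was not particular to these genes. The sums of pericyte, endothelial, choroid plexus and neural crest genes had it too, as did those of the glial lists described below. The microglia, ventral and dorsal sums did not, and in the meningeal sum library 2 was lowest but library 1 highest. The part of meningeal cells in the Pdgfra values was not tested.

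Sox10, the SoxE factor that marks committed oligodendrocyte cells and also neural crest, had side means of 64.4 ± 4.50 and 64.5 ± 20.5 (SD, n = 3 each). The gene spans chromosome 15 from 79154908 to 79165240, minus strand. It had 69.6, 61.7 and 61.9 normalised reads in the positive-side libraries and 59.3, 47.0 and 87.1 in the negative-side libraries. The negative side spanned the whole positive side (exact permutation p = 0.80). The deposited log2 fold change of 0.01 ± 0.32 (standard error) has a 95% interval from -0.62 to 0.64. Of 10 genes of neural crest and Schwann cells, a list that includes Sox10 itself, 9 were tested, 5 positive and 4 negative, and none was called. Foxd3 was listed with a mean of 0. The sum of the 7 resolved ones ran from 312 to 440 in the positive-side libraries and from 351 to 503 in the negative-side libraries. The part of these cells in the Sox10 values was not tested.
Cspg4, the NG2 proteoglycan of oligodendrocyte precursors and pericytes (chromosome 9, 56865033 to 56899870), had 140, 170 and 126 normalised reads in the positive-side libraries and 161, 130 and 221 in the negative-side libraries. Library 3 of the negative side was high and the other libraries overlapped (exact permutation p = 0.60). Its deposited log2 fold change was -0.22 ± 0.25 (standard error, DESeq2 adjusted p = 1.00). Without library 3 of the negative side the log2 ratio of recovered reads was 0.0027, and it was -0.23 with all 6 libraries. None of 10 pericyte and mural cell genes was called, and the sum of the 8 resolved ones was 1899 to 3044 normalised reads in the positive-side libraries and 1606 to 2356 in the negative-side libraries, so the sides overlapped. The smallest p-values of the list were those of the smooth muscle actin gene Acta2 (log2 fold change 2.14 ± 0.76, standard error) and of Vtn (0.91 ± 0.43), with DESeq2 adjusted p-values of 0.45 and 1.00. None of the 8 resolved genes was at 0 in any library, and the part of mural cells in Cspg4 was not tested. Endothelial genes (9 of 10 positive, median log2 fold change 0.23) and choroid plexus genes (6 of 10 positive, median 0.42) had no call either. Only 2 of the 10 choroid plexus genes had a mean of at least 10. Of the 10, 7 were at 0 in at least 1 library and 2 throughout a side, so that median rests largely on very few reads.

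Apoe had the widest spread for its level of all 10 genes. The gene spans chromosome 7 from 19696109 to 19699188, minus strand. It had 5981, 6559 and 1960 normalised reads in the positive-side libraries and 1648, 3163 and 3041 in the negative-side libraries. Libraries 1 and 2 of the positive side stood above all others, while library 3 lay within the range of the negative side (exact permutation p = 0.30). The side means were 4834 ± 2505 and 2617 ± 842 (SD, n = 3 each). The deposited log2 fold change was 0.89 ± 0.58 (standard error), with a DESeq2 adjusted p of 1.00 and a 95% interval from -0.24 to 2.02. Of the 200 genes closest in mean, 0 had a wider standard error and 0 a larger absolute fold change, and the median of their standard errors was 0.082. Apoe had 22806 reads in all.

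Microglia and macrophage genes moved with Apoe. Of the 15 genes of that list 14 had positive log2 fold changes, with a median of 0.87, and 1 was called, the macrophage gene F13a1, where 0.0867% of all genes tested were called in that direction. Summed over all 15 genes, normalised reads were 4663, 5245 and 1670 in the positive-side libraries and 1458, 2572 and 2238 in the negative-side libraries. This sum and Apoe had the same order of all 6 libraries. Relative to the mean of the 6 libraries, they stood at 1.57 and 1.61 in library 1 of the positive side. In library 1 of the negative side they stood at 0.49 and 0.44. An order shared with a list sum was not particular to Apoe. Pdgfra had the same order of all 6 libraries as the sums of 2 glial lists described below. These are the genes of astrocytes and radial glia, and the gliogenic signals and transcription factors. The complement gene C1qa, named after its values were seen, had 584, 636 and 233 normalised reads in the positive-side libraries and 173, 344 and 286 in the negative-side libraries. P2ry12, a microglial receptor gene also named after its values were seen, had 96.7, 101 and 60.8 against 82.7, 81.6 and 114, with a deposited log2 fold change of -0.10 ± 0.29 (standard error). F13a1 had 341, 402 and 28.8 against 5.39, 11.5 and 15.3. No gene of the list was at 0 throughout a side, 2 were at 0 in at least 1 library, and the part of these cells in the Apoe values was not tested.

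**Figure D3:**
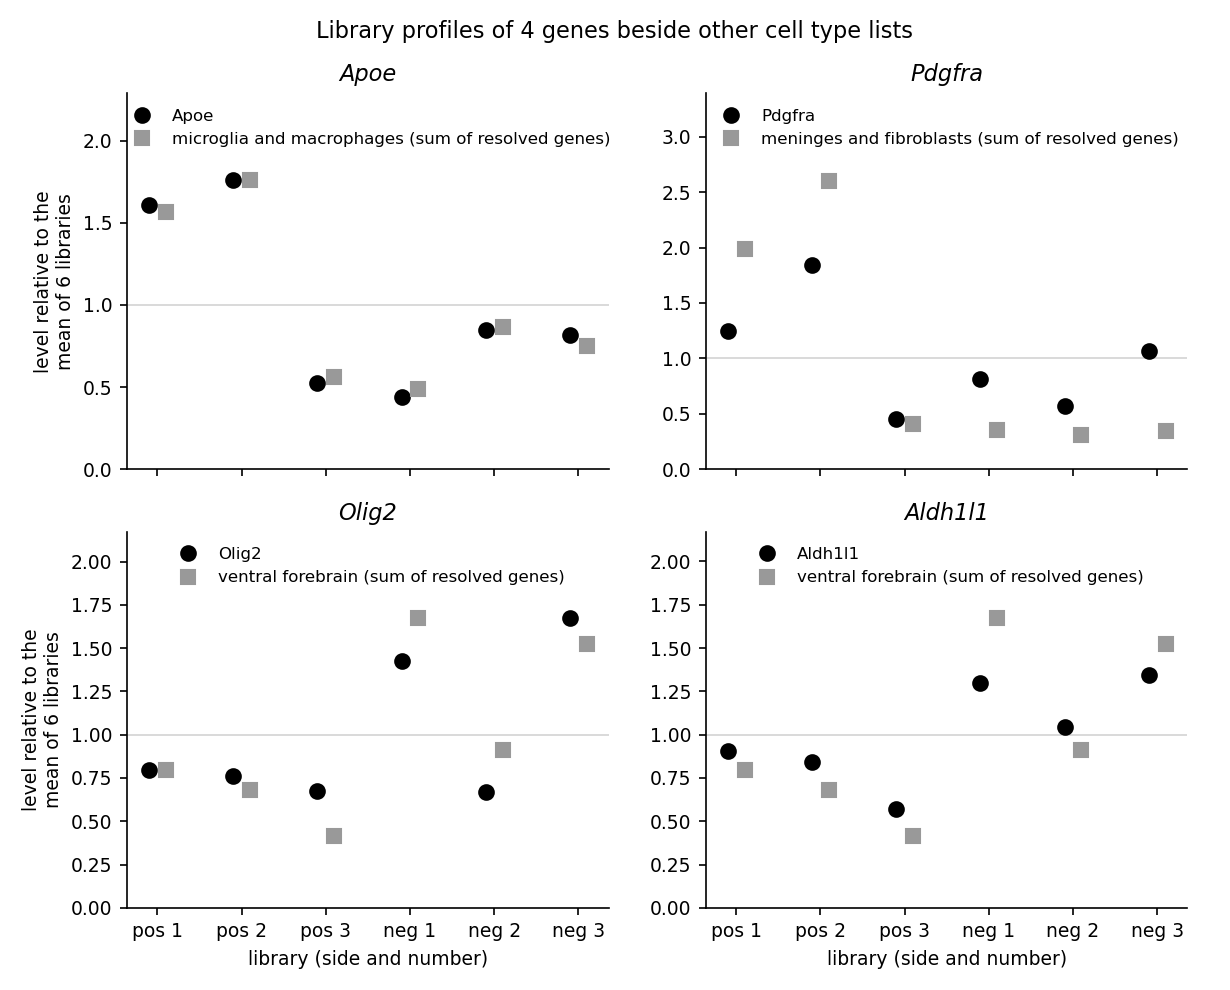
Level in each library relative to the mean of the 6 libraries (y axis, from 0) for Apoe, Pdgfra, Olig2 and Aldh1l1 (black circles), each beside the summed normalised reads of the resolved genes of another cell type list (grey squares). Apoe and the microglia and macrophage sum lie close in every library, at 0.53 and 0.56 in library 3 of the positive side, while Pdgfra and the meningeal sum part on the negative side, at 1.07 and 0.34 in its library 3.

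The other astrocyte genes of the set were not called either, as Aldh1l1 and Apoe were not. Aldoc (chromosome 11, 78322968 to 78327781) was the most precise of the 10, with a mean of 4505 normalised counts and a deposited log2 fold change of 0.06 ± 0.12 (standard error). Its 95% interval from -0.17 to 0.28 holds only small changes in either direction. Gfap (chromosome 11, 102887336 to 102900912), which cortical astrocytes switch on late, had 80 reads in all, with 31.6, 14.7 and 6.64 normalised reads in the positive-side libraries and 0.90, 5.76 and 20.01 in the negative-side libraries. The sides overlapped (exact permutation p = 0.40), and the deposited log2 fold change was 1.02 ± 0.97 (standard error, DESeq2 adjusted p = 1.00). Leaving out a single library moved the log2 ratio of its reads from 0.25 (without library 1 of the positive side) to 2.25 (without library 3 of the negative side). Aqp4, the water channel of astrocyte endfeet, had 174 reads in all, with 26.2, 36.2 and 22.1 normalised reads in the positive-side libraries and 31.4, 15.4 and 43.5 in the negative-side libraries. The negative side spanned the positive side (exact permutation p = 1.0), and the deposited log2 fold change was -0.09 ± 0.50 (standard error).

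**Figure D4:**
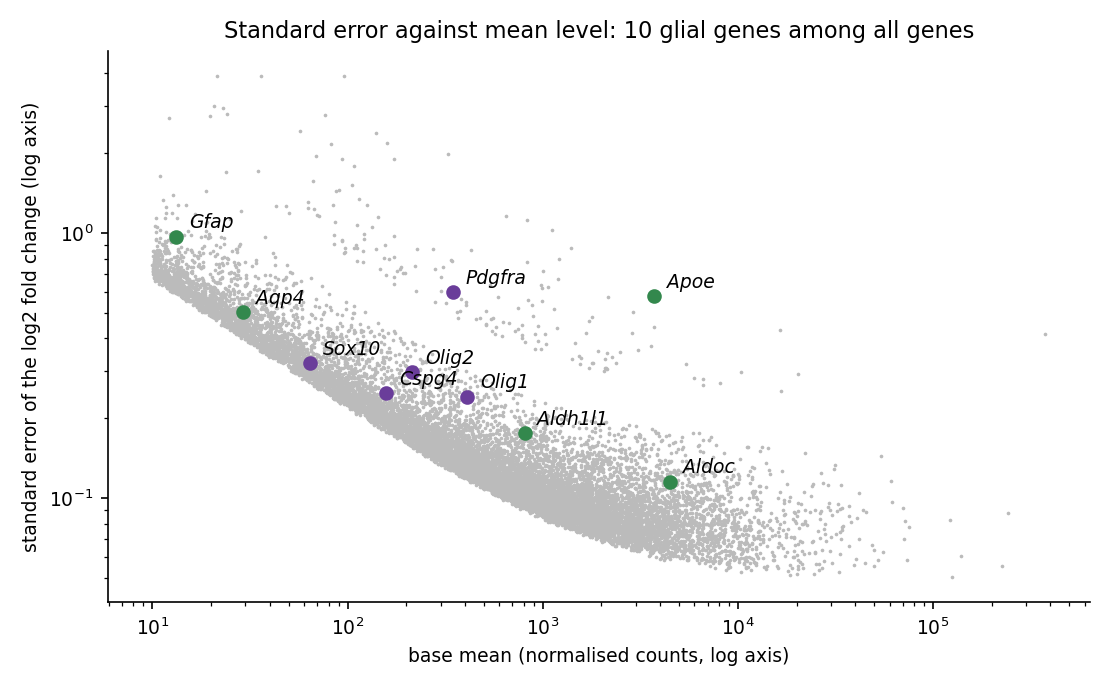
Standard error of the deposited log2 fold change against the base mean (both log axes) for all genes with a mean of at least 10 (grey points), with the 10 glial genes in colour (purple for oligodendrocyte precursor and green for astrocyte genes). Apoe (0.58) and Pdgfra (0.60) lie far above genes of their level, whose medians are 0.082 and 0.14, and Sox10 (0.32) lies on the median of 0.31.

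The libraries ran in a shared pattern across the set. On the positive side library 3 had the lowest value for 8 of the 9 resolved genes, all but Sox10, as it did for 43.7% of the 410 resolved genes taken across the range of means. On the negative side library 3 had the highest value for 8 of 9, all but Apoe, against 38.5% of the 410 genes. Library 2 had the lowest value there for 7 of 9, against 29.3% of the 410 genes. The pattern was not particular to this set, and the lists of other cell types differed in it. Library 3 was lowest on the positive side for 15 of 15 microglia and macrophage genes, 7 of 8 endothelial genes and 4 of 7 ventral genes. Library 2 was lowest on the negative side for 7 of 7 ventral genes, 5 of 8 endothelial genes and 3 of 15 microglia and macrophage genes. Genes of a set share their libraries and are not independent, so these counts are a description of 6 libraries.

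The wider glial pathway was measured on 3 lists, with 0 of 93 tested genes called by DESeq2 in the authors' deposited table and 10 with an unadjusted p under 0.05, of which 8 were positive and 2 negative. Over all genes tested 0.136% were called, and 2.77% had such a p on the positive and 1.19% on the negative side. Among 27 tested genes of the oligodendrocyte lineage, 12 were positive and 15 negative, with a median log2 fold change of -0.01, and Mobp, a late myelin gene, was listed with a mean of 0. Sox8, the SoxE relative of Sox10, had the smallest p of the list, with 741, 688 and 664 normalised reads in the positive-side libraries and 1023, 678 and 990 in the negative-side libraries. Its deposited log2 fold change was -0.36 ± 0.16 (standard error, DESeq2 adjusted p = 1.00), and the high libraries 1 and 3 and the low library 2 of the negative side were also those of Olig2. The taurine synthesis gene Cdo1 and the galactolipid synthesis gene Ugt8a had log2 fold changes of -0.12 ± 0.10 and -0.29 ± 0.27 (standard errors) in the authors' deposited table, with DESeq2 adjusted p-values of 1.00.

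Of 32 genes of astrocytes and radial glia, 18 were positive and 14 negative, with a median log2 fold change of 0.03. Acsbg1, a fatty acid CoA ligase gene, lay on the same side as Aldh1l1. It had 364, 349 and 435 normalised reads in the positive-side libraries and 549, 467 and 547 in the negative-side libraries, and the sides did not overlap (exact permutation p = 0.10). Its deposited log2 fold change was -0.45 ± 0.14 (standard error, DESeq2 adjusted p = 0.25). Gja1, the gap junction gene of astrocytes that meningeal cells also express, had 1191, 1216 and 445 normalised reads in the positive-side libraries and 399, 441 and 330 in the negative-side libraries (log2 fold change 1.29 ± 0.46, standard error, DESeq2 adjusted p = 0.44). Gjb6, its astrocyte partner, had 62, 90 and 0 reads in the positive-side libraries and 0, 0 and 1 in the negative-side libraries. These Gjb6 reads were recovered from the base mean alone. In both connexin genes the reads were highest in the positive-side libraries 1 and 2, which also had the most meningeal reads, and the part of meningeal cells was not tested. Hopx, a homeodomain gene of radial glia, had 254, 174 and 206 normalised reads on the positive side against 108, 162 and 144 without overlap (exact permutation p = 0.10), with a log2 fold change of 0.62 ± 0.23 (standard error) and a DESeq2 adjusted p of 0.55.

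Among 34 gliogenic signals and transcription factors, 19 were positive and 15 negative, with a median log2 fold change of 0.02. The NFI gene Nfix, a driver of gliogenesis, had a mean of 45254 normalised counts and a deposited log2 fold change of 0.26 ± 0.09 (standard error, DESeq2 adjusted p = 0.35). Smo, the transducer of hedgehog signals, had 0.23 ± 0.09 there (adjusted p = 0.74). The ligand gene Bmp4 had 49.7, 29.4 and 2.21 normalised reads in the positive-side libraries and 1.80, 1.92 and 5.88 in the negative-side libraries, and Bmp2 had 30.7, 59.7 and 6.64 against 8.99, 8.64 and 17.7. As for the connexins, libraries 1 and 2 of the positive side were high, and both genes missed the threshold, with DESeq2 adjusted p-values of 0.28 and 1.00.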

How the data were processed

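Per the submitters' processing notes, reads of the 6 libraries (3 with the Ccnd2 edit, 3 with GFP only) went through cutadapt, featureCounts and DESeq2 with build mm10. Versions, aligner, annotation and strand setting were not given in the sources used here. The single table is the authors' own comparison, with 0 columns per sample. Per the file headers it holds a base mean (a signal, the mean of counts divided by size factors), a log2 fold change with its standard error, a Wald statistic (a score) and p-values, raw and adjusted. The deposited adjustment is that of Benjamini and Hochberg over 18446 genes. A gene was called under an adjusted p of 0.05. No test of the authors was refitted.

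The 739 genes with a single read take 6 base means, which give the 6 size factors, 3 for each sign of the fold change. Sets of whole reads were searched that give a base mean to its printed precision and, under the negative binomial model at the deposited standard error, the deposited log2 fold change within 2e-06 (5e-07 for means of at least 100). A gene was resolved where 1 set was left. Under a mean of 70, a gene with no such set was also taken as resolved where the base mean alone gave 1 set. Gjb6 was resolved in this way, without a match to its deposited fold change. For Apoe, above the limit of 850, 1333705 sets gave the base mean, and a tighter gap in fold change was set for this gene alone. The dispersion implied by its standard error also had to match one estimated from the candidate reads, within a relative 0.001. This assumes that the authors' dispersion for Apoe came from its own reads alone. The search was tested on simulated data built on genes with means below that of Olig1 (411). Genes of higher mean, and the rule used for Apoe, were not covered by that test. Folds from recovered reads used means plus a pseudocount of 0.5. Total depth per library is not given, so precision is set by the reads of each gene. Exon lengths are from GENCODE M21. The 10 genes, the lists and the tests were chosen with earlier results of these data known. Named genes are the 10, the 4 of each glial list with the smallest p among means of at least 10, and of each other list up to 3 called genes or else the 2 with the smallest p, not all of which are printed. A gene that this rule takes in is not reported here. Tools were Python 3.11.15, numpy 2.4.6, pandas 2.3.3, scipy 1.17.1 and numba 0.67.0.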

Additional observations from a re-analysis of the deposited data

How the results depend on the processing

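The count of glial genes called was 0 of 10 in the authors' deposited DESeq2 table, with 2 at an unadjusted p under 0.05. It stayed at 0 when p-values were adjusted again over genes at or above a mean of 10 or of 50. It was also 0 when the Wald statistic was read against a t distribution with 4 degrees of freedom. Under that distribution no gene tested could be called, not even Dlx5 with the smallest p of all, so that 0 was fixed in advance. At an adjusted p under 0.1 the count was 1, Aldh1l1, where 0.282% of all genes tested passed. The count over the 3 related lists was 0 under all of these settings, again fixed in advance for the t distribution. With a single library left out, the sign of the log2 ratio of recovered reads was kept in 3 of 6 cases for Sox10, 4 of 6 for Aqp4, 5 of 6 for Cspg4 and 6 of 6 for each of the other 6 resolved genes. The ranges were -0.64 to -0.13 for Olig1, -1.06 to -0.49 for Olig2, 0.06 to 0.92 for Pdgfra, -0.18 to 0.27 for Sox10, -0.39 to 0.0027 for Cspg4, -0.80 to -0.49 for Aldh1l1, 0.60 to 1.26 for Apoe, 0.25 to 2.25 for Gfap and -0.41 to 0.26 for Aqp4. No paired analysis was possible because the table has no columns per sample and no recovered library is matched to a replicate number. Other pseudocounts, or reads not divided by size factors, left 27 of 27 ratios within 1 SD of the libraries. That SD is a loose limit, from 0.29 (Aldh1l1) to 1.57 (Gfap) in log2. The 54 of 54 ratios with a library left out also lay within it, those with a changed sign included. Gfap (80 reads) and Aqp4 (174 reads) rest on the fewest reads.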

Other observations

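Of the 15 microglia and macrophage genes, 5 had the same order of all 6 libraries as Apoe (C1qa, C1qc, Tyrobp, Trem2 and Fcer1g), against 0.493% (2 of 406) of the resolved genes taken across the range of means that are in none of the lists. For Pdgfra the counts were 0 of 11 meningeal genes against 0.493%, and for Olig2 0 of 7 ventral genes against 0.246%, shares at which lists of this size would mostly show 0. For Aldh1l1 they were 0 of 7 ventral genes against 0 of 406. Genes of a list share their libraries and are not independent, so these counts are a description. The comparisons were chosen after the values were seen and rest on 6 libraries. The part of other cell types in these genes was not tested.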
